A study of Arabidopsis thaliana with 12 samples.

Results

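The 5 genes described here belong to the chloroplast NDH complex (NADH dehydrogenase-like complex) or to its nuclear factors. Such factors assemble the complex, edit its transcripts or act with it. The genes each had 1 probe annotated to that gene alone. They were NdhS (AT4G23890, probe 77), NdhN (AT5G58260, probe 2514), CRR41 (AT1G51100, probe 3942), CRR21 (AT5G55740, probe 1947) and PIFI (AT3G15840, probe 1037), out of 692 probes annotated to 1 gene among 3439 in all. The genes were chosen by name and function, but with results of the same light comparison known. Their differences between the light regimes are therefore given as a description, without a test. NdhS and NdhN are subunits, CRR41 is an assembly factor, CRR21 is an RNA editing factor and PIFI is an associated protein, so the complex itself is represented by 2 of its subunits. The 5 genes are not all the factors measured. Cpn60beta4 and OTP85 also had probes of their own and are described below.

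Transcript levels were measured by array in total RNA of wild-type Arabidopsis thaliana, ecotype C24, grown under photosystem II-specific light (PSII light, 6 samples) or photosystem I-specific light (PSI light, 6 samples). The labels name no tissue, age, duration or light intensity, and all plants were wild type. Samples numbered 1 and 2, 3 and 4, and 5 and 6 of a group deviated from the group mean together (Pearson r across probes 0.468 to 0.693) and were averaged, which left 3 replicates per group. Whether replicates were separate plants or pools is not stated in the labels, so their spread, and any p-value, may reflect technical variation alone. In RNA of whole samples, fewer cells of a type and less RNA per cell cannot be told apart.

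The NDH complex sits in the thylakoid membrane, takes electrons from ferredoxin and passes them to plastoquinone. It serves cyclic electron flow around photosystem I and chlororespiration, and in Arabidopsis it associates with photosystem I. Some subunits are encoded in the plastid genome and others in the nucleus, and the plastid ndh transcripts undergo RNA editing by nuclear-encoded proteins of the pentatricopeptide repeat family. Plants that lack the complex lose the transient rise of chlorophyll fluorescence after light is switched off, which is how many of its factors were found and named.

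All 5 genes had a higher mean intensity in PSII light than in PSI light, by 1.08-fold to 1.27-fold on the deposited values, as did 65.1% of all probes. On these values the median log2 difference of all probes was 0.06, close to the 0.08 of PIFI. CRR41 was the gene whose single samples were fully separated, which held for 9.36% of all probes with PSII light higher. CRR41 and CRR21 were the genes whose normalized replicates did not overlap, which held for 14.7% of all probes in the same direction. NdhS had the largest difference of the 5 on the normalized log2 scale, but its replicates disagreed in direction. NdhN differed little after normalization, and PIFI hardly at all.

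**Figure D1:**
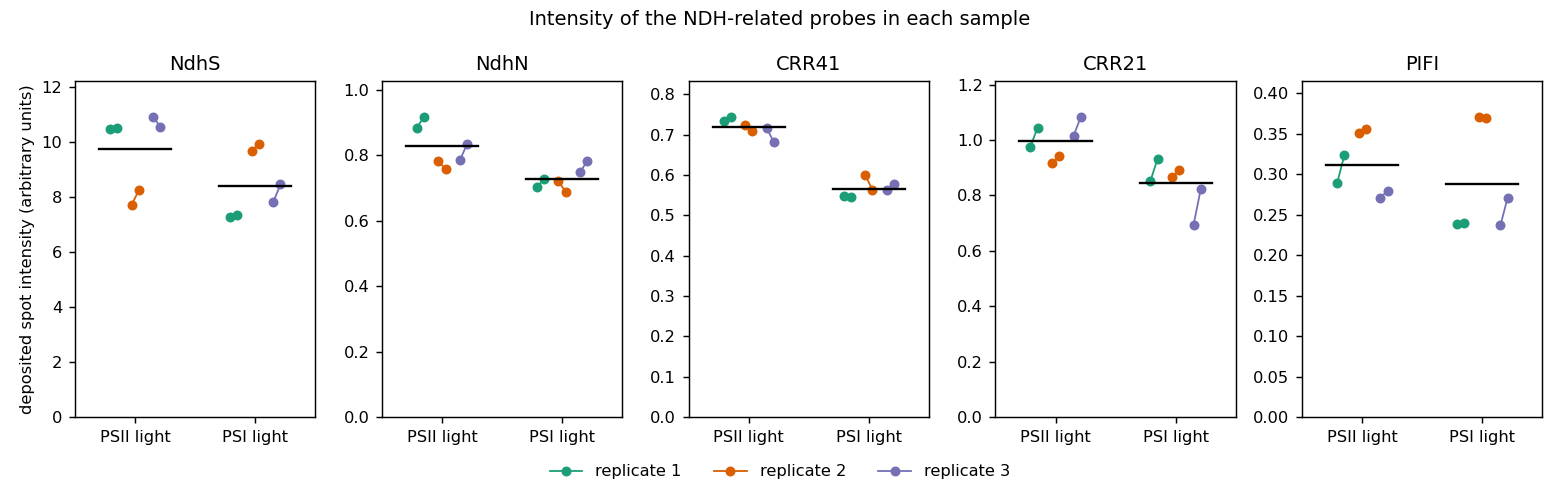
Deposited spot intensity (arbitrary units, linear axes from 0) of the 5 probes in PSII light and PSI light. Each point is a sample, a line joins the repeat measurements of a replicate, and black bars are means of the 3 replicates. All PSII-light samples of CRR41 lie above all its PSI-light samples, while the samples of the other 4 genes overlap.

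NdhS, also known as CRR31, is the subunit that provides the docking site for ferredoxin. Its replicates had intensities of 10.5, 7.98 and 10.7 in PSII light, against 7.30, 9.81 and 8.14 in PSI light. Over the single samples the lowest, median and highest values were 7.71, 10.5 and 10.9 in PSII light, and 7.26, 8.14 and 9.93 in PSI light. Replicate 2 was the lowest of the PSII-light replicates and the highest of the PSI-light replicates, and the groups overlapped. The means were 9.73 ± 1.52 in PSII light and 8.42 ± 1.28 in PSI light (SD, n = 3 each).

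Differences were fitted with limma across all probes on the normalized scale, log2(intensity + 0.193), which understates changes of dim probes. The fit did not pair replicates by number, so its SEs are unpaired. NdhS had a log2 difference, PSII light minus PSI light, of 0.22 ± 0.16 (SE), or 1.17-fold. Taken by replicate number, its log2 differences were 0.47, -0.25 and 0.45. Repeat measurements of the same replicate differed by at most 0.11 on this scale, less than the SD of 0.22 between replicates within a group. The opposite direction in replicate 2 was thus seen in both of its repeat measurements. Without PSII-light replicate 2 the log2 difference was 0.36, and it was 0.12 without PSII-light replicate 3 or without PSI-light replicate 1.

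NdhN is a nuclear-encoded subunit of the stromal arm of the complex, which holds the plastid-encoded subunit NdhH and faces the electron donor. Its replicates had intensities of 0.900, 0.770 and 0.810 in PSII light, against 0.715, 0.704 and 0.765 in PSI light. Single samples had a lowest, median and highest value of 0.756, 0.810 and 0.916 in PSII light, and of 0.687, 0.724 and 0.783 in PSI light. Replicate means did not overlap on the deposited values, as for 20.9% of all probes in the same direction, although single samples did. The means were 0.826 ± 0.0668 in PSII light and 0.728 ± 0.0326 in PSI light (SD, n = 3 each). After quantile normalization the replicates overlapped, and the log2 difference was 0.09 ± 0.07 (SE), with values of 0.21, 0.10 and -0.04 for replicates 1, 2 and 3. On values as deposited it was 0.15, and with the 10 times larger pseudocount 0.03. It was 0.06 without PSII-light replicate 1 and 0.14 without PSI-light replicate 3.

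CRR41 is a stromal protein needed to assemble the stromal arm, the part that contains NdhN. Its replicates had intensities of 0.739, 0.717 and 0.698 in PSII light, against 0.547, 0.582 and 0.570 in PSI light. Single samples ran between 0.681 and 0.743 in PSII light with a median of 0.720, and between 0.546 and 0.600 in PSI light with a median of 0.562. The groups did not overlap even by single sample. The means were 0.718 ± 0.0203 in PSII light and 0.566 ± 0.0177 in PSI light (SD, n = 3 each).

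The log2 difference of CRR41 was 0.20 ± 0.06 (SE), or 1.15-fold, and it was above 0 in all 3 numbered replicates (0.26, 0.24 and 0.11). Being higher in PSII light in all 3 replicate numbers was seen for 28.2% of all probes. CRR41 also had the smallest SD within groups of the 5 genes, 0.050 on the log2 scale, while the median over probes above 0 in every sample was 0.10. Its size depended on the scale, with 0.26 on values as deposited and 0.07 with the 10 times larger pseudocount, which exceeds its mean intensity.

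CRR21 is a pentatricopeptide repeat protein required for RNA editing of the plastid ndhD transcript, which encodes a membrane subunit of the complex. Its replicates had intensities of 1.01, 0.928 and 1.05 in PSII light, against 0.892, 0.879 and 0.760 in PSI light. Single samples had a lowest, median and highest value of 0.916, 0.994 and 1.08 in PSII light, and of 0.695, 0.860 and 0.932 in PSI light. Replicate means did not overlap on the deposited values, as for 20.9% of all probes in this direction, but the highest PSI-light sample lay above the lowest PSII-light sample. The means were 0.995 ± 0.0613 in PSII light and 0.844 ± 0.0729 in PSI light (SD, n = 3 each).

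The log2 difference of CRR21 was 0.15 ± 0.06 (SE), or 1.11-fold. By replicate number it was 0.10, 0.05 and 0.30, so that replicate 3, with the lowest PSI-light value, gave most of it. Repeat measurements of CRR21 differed by up to 0.20 on the log2 scale, more than those of any of the other 4 genes. With the 10 times larger pseudocount the log2 difference was 0.06, and on values as deposited 0.20.

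PIFI takes its name from the post-illumination chlorophyll fluorescence increase and is a plastid protein needed for NDH-mediated plastoquinone reduction. Its replicates had intensities of 0.306, 0.354 and 0.275 in PSII light, against 0.239, 0.370 and 0.254 in PSI light. Single samples had a lowest, median and highest value of 0.271, 0.306 and 0.356 in PSII light, and of 0.237, 0.255 and 0.371 in PSI light. Replicate 2 was the highest replicate of both groups, and the groups overlapped. The means were 0.312 ± 0.0395 in PSII light and 0.288 ± 0.0719 in PSI light (SD, n = 3 each).

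PIFI had a log2 difference of 0.02 ± 0.11 (SE), with 0.14, -0.04 and -0.02 for replicates 1, 2 and 3. Its probe belonged to the dimmest 25% of probes by mean intensity, the only one of the 5 that did. The direction was not stable when single replicates were left out, each time with the replicate of that number in the other group kept. Omitting a PSII-light replicate gave 0.04, -0.05 and 0.07 for replicates 1, 2 and 3, and omitting a PSI-light replicate gave -0.05, 0.12 and -0.0027. Repeat measurements agreed within 0.13 on the log2 scale, so its replicates differed more (SD within groups 0.15) than its repeats typically did (median 0.03).

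**Figure D2:**
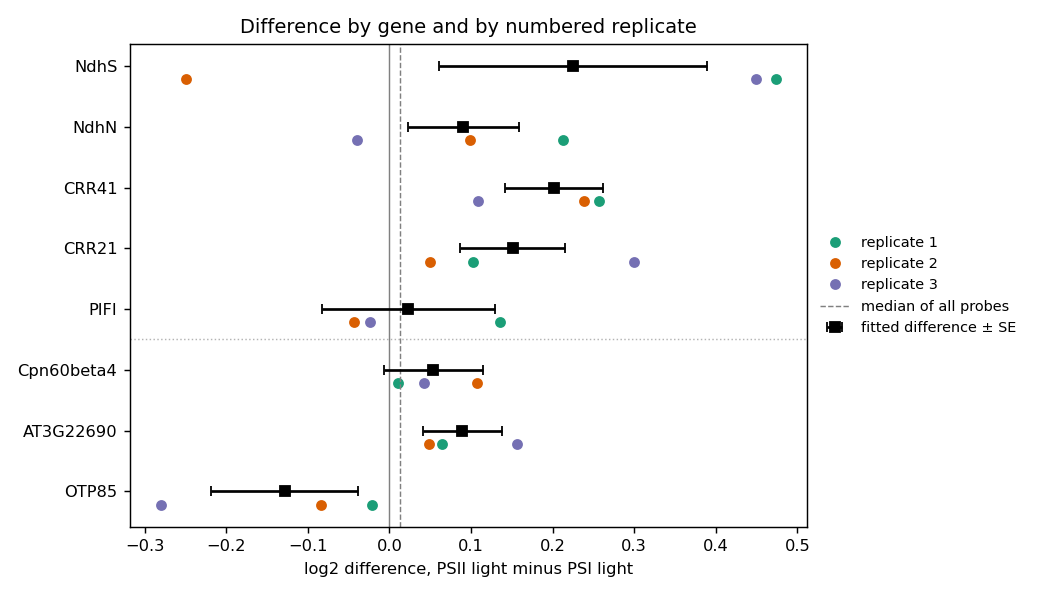
Log2 difference, PSII light minus PSI light, for the 5 genes (above the dotted line) and 3 other listed genes (below it). Squares with bars are fitted differences ± SE, coloured points are differences by replicate number, and the dashed line is the median of all probes (0.01). Points for replicate 2 lie below 0 for NdhS and PIFI, and those for replicate 3 for NdhN and PIFI. All points for CRR41, CRR21, Cpn60beta4 and AT3G22690 lie above 0, and all points for OTP85 lie below 0.

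The median log2 difference of the 5 genes was 0.15, against 0.01 over all probes and 0.03 over the 692 probes annotated to 1 gene. A log2 difference above 0 was found for 57.0% of all probes and for 62.4% of those annotated to 1 gene. Because results of this contrast were known when the genes were chosen, nothing is read from these values. The share of all probes with a lower log2 difference was 91.8% for NdhS, 89.2% for CRR41, 81.9% for CRR21, 69.6% for NdhN and 52.5% for PIFI.

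**Figure D3:**
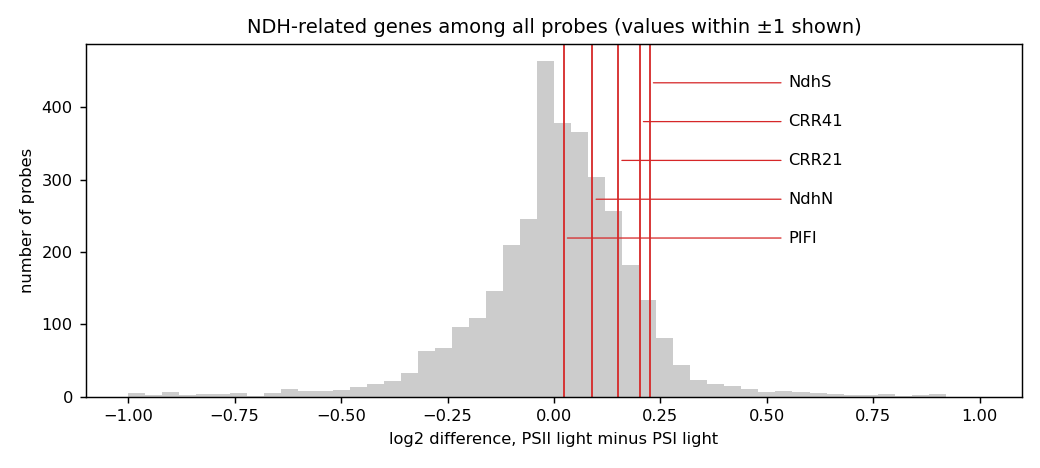
Number of probes by log2 difference, PSII light minus PSI light, in steps of 0.04, for the 3418 probes between -1 and 1 (21 lie beyond). Red lines mark the 5 genes, all to the right of 0 and all inside the main body of the distribution.

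The rest of the pathway was hardly covered by probes of single genes. Of 72 further loci for NDH subunits, assembly factors and photosystem I linkers, plastid RNA editing and processing, and cyclic electron flow, 3 had a probe of their own. None of the 28 further loci for NDH subunits was among them. Another 6 loci shared 5 probes with other genes and are not named, and 0 of these probes passed the test. Of the 3 genes, 0 passed in either direction (limma, Benjamini-Hochberg adjusted p under 0.05), and 0 had an unadjusted p under 0.05. Across all 3439 probes 3.14% passed, 0.756% higher and 2.38% lower in PSII light, and 22.3% had an unadjusted p under 0.05. Leaving out 1 replicate moved these counts, 26 higher and 82 lower, to between 1 and 52 higher and between 18 and 88 lower.

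Cpn60beta4 (AT1G26230), a plastid chaperonin subunit needed to fold NdhH, averaged 0.391 ± 0.0264 in PSII light and 0.346 ± 0.0261 in PSI light (SD, n = 3 each). In limma the log2 difference was 0.05 ± 0.06 (SE), with a Benjamini-Hochberg adjusted p of 0.662. OTP85 (AT2G02980), a pentatricopeptide repeat protein that like CRR21 is required for editing of ndhD, had intensities of 0.405, 0.381 and 0.277 in PSII light, against 0.385, 0.412 and 0.345 in PSI light. PSII-light replicate 3 was the lowest of the 6, and limma gave a log2 difference of -0.13 ± 0.09 (SE) with a Benjamini-Hochberg adjusted p of 0.450. The ndhD editing factors OTP85 and CRR21 thus had differences of opposite sign, and that contrast was not tested. AT3G22690, listed with the plastid RNA editing loci, averaged 0.382 ± 0.00250 in PSII light and 0.325 ± 0.0384 in PSI light (SD, n = 3 each). In limma the log2 difference was 0.09 ± 0.05 (SE), with a Benjamini-Hochberg adjusted p of 0.334. All 3 probes belonged to the dimmest 25%.

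**Figure D4:**
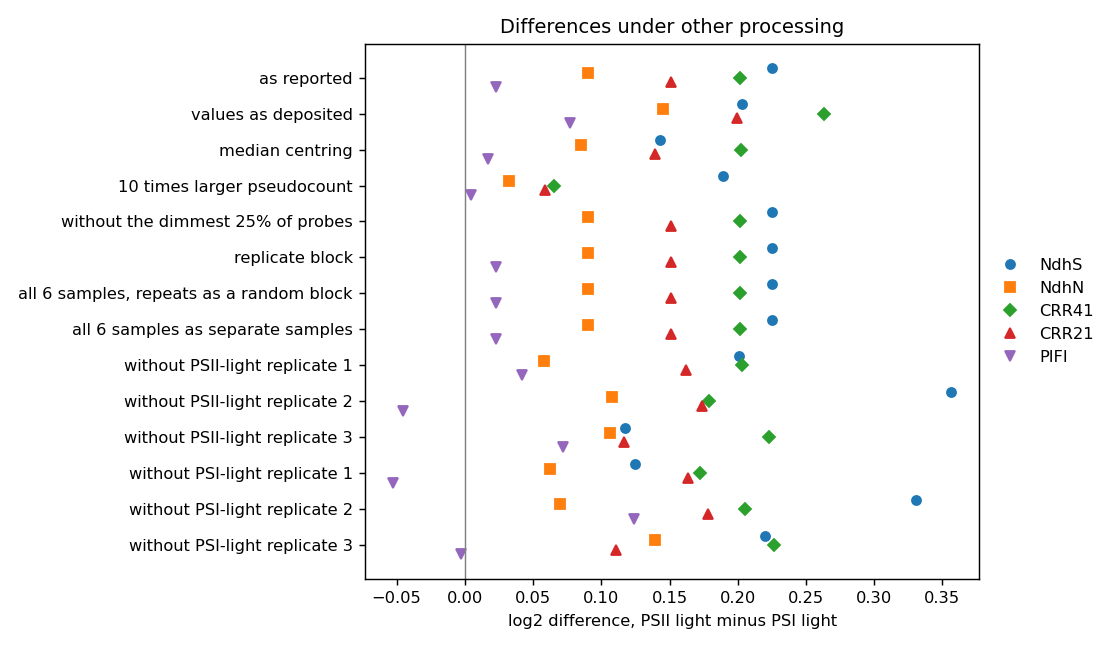
Log2 difference, PSII light minus PSI light, of each of the 5 genes as reported and under each alternative (rows). PIFI has no value without the dimmest 25% of probes, and it is the one gene with values on both sides of 0. NdhS spans 0.12 to 0.36.

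The 5 genes did not share one pattern across the 12 samples. Over these samples Pearson's r between their normalized levels ran from -0.04 (NdhN and PIFI) to 0.69 (NdhN and CRR41), with 0.64 for NdhS and CRR21. The samples comprise 2 groups and repeats of the same replicates, so the points are not independent. After the group means were subtracted, r was 0.08 for the subunits NdhS and NdhN and 0.49 for NdhN and CRR41. It was 0.46 for NdhS and CRR21, 0.53 for CRR41 and PIFI, and -0.43 for CRR41 and CRR21.

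**Figure D5:**
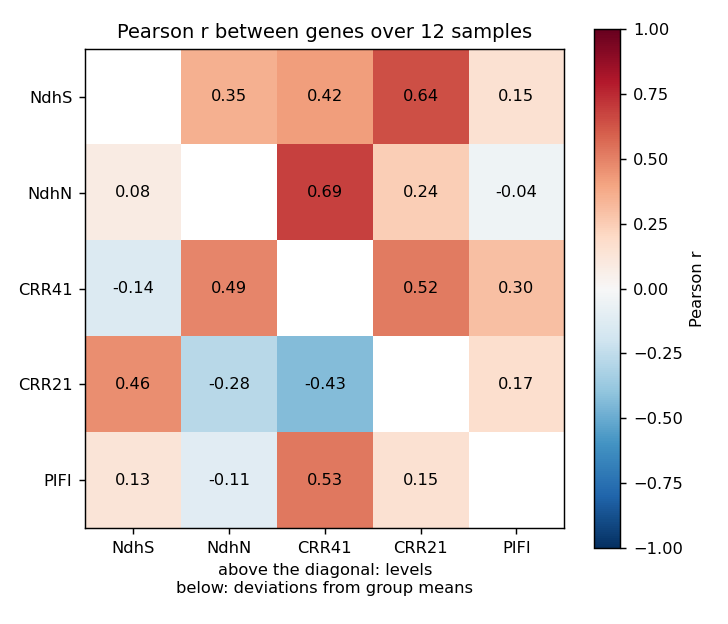
Pearson r between pairs of the 5 genes over 12 samples, on normalized log2 levels (above the diagonal) and on deviations from the group means (below it). CRR41 and CRR21 have r = 0.52 on levels and -0.43 on deviations, and the subunits NdhS and NdhN have 0.35 and 0.08.

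Other probes of single genes were ranked by likeness to each gene, as Pearson's r of normalized log2 levels over the 12 samples among 652 candidates above 0 in every sample. The probe most like NdhS was that of AT1G16080 (r = 0.88, and 0.86 on deviations from group means), followed by AT5G53080 (0.85) and AT1G74070 (0.83). For NdhN it was LrgB (AT1G32080), the plastid glycolate and glycerate transporter of photorespiration (r = 0.90, and 0.86 on deviations), followed by AT2G47680 (0.87) and AT5G15390 (0.82). CRR41 was most like AT1G69910 (r = 0.94, and 0.81 on deviations), AT3G47100 (0.91) and AT3G09080 (0.88). On deviations AT3G47100 had 0.71 and AT3G09080 only 0.46. CRR21 was most like AT5G35100 (r = 0.91, and 0.82 on deviations), AT4G00170 (0.88) and AT3G56130 (0.87). PIFI was most like AT5G66090 (r = 0.94 on levels and on deviations), AT5G53920 (0.94) and AT3G51320 (0.91). None of the 5 genes appeared among the 3 probes most like another of them. With 652 candidates for 3 places this was likely in advance, so nothing is read from it. The median r over candidates lay between 0.06 and 0.19, and these highest values were picked from many candidates over few independent samples, so they are a description only.

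Of 8 probes with neighbouring numbers, 1 was at 0 in every sample, and over the 12 samples r with the member was above 0 for 5 of the other 7 and below 0 for 2. Probe 3943, next to CRR41 and not listed in the annotation, averaged 0.820 in PSII light and 1.18 in PSI light. In limma it differed by -0.46 ± 0.12 (SE) on the log2 scale, with a Benjamini-Hochberg adjusted p of 0.106. It ran opposite to CRR41, with r = -0.93 over the 12 samples and -0.72 on deviations from group means. Both neighbours of CRR21, probes 1946 and 1948, followed it, with r = 0.66 and 0.59, as did probe 1036 beside PIFI with r = 0.64. On deviations r was 0.63 and 0.65 for probes 1946 and 1948, and 0.63 for probe 1036. Probes 1946, 1948 and 1036 had log2 differences of 0.08, 0.05 and 0.01. Probe 2515 beside NdhN had r = 0.43 and a log2 difference of 0.09, and probe 3941 beside CRR41 had r = 0.44 and a log2 difference of 0.05. On deviations their r was lower, 0.14 for probe 2515 and 0.19 for probe 3941. Probe 76, that of AT4G37420, ran against NdhS, with r = -0.36 and -0.79 on deviations. The part of neighbouring spots in the members' values was not tested, and no source used here gives the layout of the array.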

How the data were processed

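The authors deposited 1 table of spot intensity on a linear scale, with 3439 probes in 12 samples; the array, scanner, background correction and scaling are not given in the sources used here. Sums over probes ranged over 3642.89 to 3767.52 in the 12 samples, and precision was limited by how many arrays there were. A pseudocount of 0.193 (5th percentile of the positive values) was added before taking log2, and samples were quantile normalized, because column medians differed by 0.16 on the log2 scale. Repeat measurements were inferred from the values, not the labels: each sample's correlation with its partner exceeded its others by at least 0.559. The test was limma 3.58.1 (lmFit, then eBayes with an intensity trend, under R 4.3.3), two-sided, adjusted by Benjamini-Hochberg over all probes without a filter; all 5 members were above 0 in every sample. The code was tested on simulated data with log2 shifts larger than the differences of the 5 genes, so that test does not cover differences of their size. Python 3.11.15 with matplotlib 3.10.9 drew the figures.

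Same-numbered replicates of both groups deviated together (correlations across probes 0.323, 0.366 and 0.360), so by the rule that all exceed 0.1 the numbers pair the samples; this comes from the numbers in the labels and the values. The reported fit has no block. The members and lists were chosen with earlier results of these data known. Genes named are the 5 members, all listed loci with a probe of their own, the 3 probes most like each member and adjacent probes. A list of 8 seed and root marker loci had 0 probes of its own. Probes were named from the platform's annotation, which can be old; 690 of 692 matched the TAIR10.1 gene table by Entrez identifier. Its coordinates were not used, as the files name no build.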

Additional observations from a re-analysis of the deposited data

How the results depend on the processing

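Of 9 alternatives that could move a difference (values as deposited, median centring, the larger pseudocount and 6 omissions of a replicate), NdhS, NdhN, CRR41 and CRR21 kept a positive log2 difference under all 9 and PIFI under 6. For CRR41 and CRR21, whose replicates do not overlap, omissions cannot change the sign. Leaving out 1 replicate gave 0.12 to 0.36 for NdhS, 0.06 to 0.14 for NdhN, 0.17 to 0.23 for CRR41, 0.11 to 0.18 for CRR21 and -0.05 to 0.12 for PIFI. Differences that moved by more than the SD within groups were those of CRR41 and CRR21. CRR41 had 0.26 without normalization and 0.07 with the 10 times larger pseudocount of 1.93, and CRR21 had 0.06 with that pseudocount. The 3 other listed genes had 0 passes throughout, and none is left without the dimmest 25% of probes.

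The count of 108 probes over the threshold was 103 with the replicate number as a block, which changed no call among the 3 other listed genes. With median centring it was 228, with robust eBayes 173, with the dimmest 25% of probes left out 235, with repeats as a random block 365 (158 higher and 207 lower in PSII light), with all 6 as separate samples 916 (478 and 438), and 20 to 140 on leaving out 1 replicate, where fewer samples are left. The lower counts were 31, 41 and 22 without PSII-light replicates 1, 2 and 3, and 20 and 28 without PSI-light replicates 1 and 3. The fit with all 6 as separate samples counts the inferred repeat measurements as independent and so overstates the replication. Their correlation in the random block fit was 0.657. The cause of the other changes was not tested. The dimmest member was PIFI, with a mean intensity of 0.300 over all samples against the pseudocount of 0.193.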
